A study of Mus musculus with 16 samples.

Results

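The GABA receptor and synthesis genes were followed in the left cochlea, taken whole, of male DBA/2J (DBA) mice through 7 genes: the GABA-A receptor subunits Gabrb1, Gabrb2 and Gabra2, the GABA-B receptor subunit Gabbr1, the glutamate decarboxylases Gad1 and Gad2, and the GABA transaminase Abat. They were chosen by name, as every probe of the array whose only annotated symbol is 1 of these 7, which gave 24 probes of the 45037 on the array that are not controls (7 of 18193 genes). A probe here stands for a group of short oligonucleotides that are read together as 1 value, and its level is the MAS5 signal on the log2 scale after quantile normalization. Levels of different probes cannot be set against each other, so each gene was compared with itself between arrays.

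The 3 groups were 5 untreated mice aged 4 weeks, 5 control mice aged 12 weeks and given daily injections of sodium bicarbonate vehicle over the last 8 of them, and 6 M+V-treated mice, also aged 12 weeks, given MET (L-methionine, 500 mg/kg) and VPA (valproic acid, 300 mg/kg) over the same 8 weeks. All mice carry the DBA alleles of Cdh23 and Fscn2 and lose hearing progressively, so no group is a normal-hearing reference. Each array held 1 cochlea of 1 mouse, and where control differed from 4 weeks, age and injections cannot be told apart. The question put to the arrays was which transcripts differed after M+V treatment, by treatment at a single age and against the untreated start.

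GABA is the main inhibitory transmitter of the mature brain. Gad1 and Gad2 make it from glutamate, Slc32a1 loads it into vesicles, the GABA-A receptor passes chloride through a channel built of alpha, beta and further subunits, the GABA-B receptor acts through G proteins, and Abat breaks GABA down. In the ear GABA is known from olivocochlear efferent fibres, whose cell bodies lie in the brainstem, and GABA receptors are known from spiral ganglion neurons. VPA is an inhibitor of histone deacetylases and an antiepileptic drug that is described as raising brain GABA, and MET feeds the methyl donor S-adenosylmethionine.

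Several facts of the whole series touch every value below. The bioB hybridisation control, which is added to each sample, was at a high level (8.91 to 9.62, log2) in M+V replicates 1 and 2, in control replicate 1 and in the whole 4-week group, and at a low level (5.73 to 6.08) in the other 4 control and 4 M+V arrays. Both comparisons with 4 weeks thus set a group wholly at the high level against one mostly at the low level. In them the bioB level and the group cannot be fully told apart. The cochlear markers Coch (14.84 to 15.42), Otos (13.82 to 14.88) and Gjb2 (11.82 to 13.17) were each above the array median of 6.90 in every array. Of 6 hair cell genes measured, 3 lay at or above that median in every array of some group. The probe of Slc26a5, an outer hair cell gene, was under it in every array (0.64 to 5.66). The brain tissue score, an array's mean over 17 oligodendrocyte and astrocyte markers, ran from 8.64 to 8.87 at 4 weeks, from 8.24 to 9.28 in control cochleae (highest in replicate 1, lowest in replicate 4) and from 7.79 to 9.19 in M+V-treated cochleae (highest in replicate 6, and 8.06, 7.98 and 7.79 in replicates 1, 2 and 5). In whole tissue, fewer cells of a type and less RNA per cell cannot be told apart.

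The promoters of Gabrb2, Gad1 and Gad2 are shown because these 3 genes had the largest differences between M+V and control among the brightest probes. Each window holds 250 bases before and 50 bases from an annotated start of transcription (RefSeq, GRCm38.p6), is written 5′ to 3′ on the strand given, and has its CG dinucleotides, the sites at which mammalian DNA is methylated, in capitals.
Gabrb2, chr11:42420190-42420489, plus strand, the first of its 3 annotated starts: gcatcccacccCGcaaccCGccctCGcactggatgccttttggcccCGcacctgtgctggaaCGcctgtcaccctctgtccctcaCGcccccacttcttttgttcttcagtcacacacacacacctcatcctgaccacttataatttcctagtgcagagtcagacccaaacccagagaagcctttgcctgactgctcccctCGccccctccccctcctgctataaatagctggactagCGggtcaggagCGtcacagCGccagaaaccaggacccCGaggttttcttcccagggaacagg
Gad1, chr2:70561879-70562178, plus strand: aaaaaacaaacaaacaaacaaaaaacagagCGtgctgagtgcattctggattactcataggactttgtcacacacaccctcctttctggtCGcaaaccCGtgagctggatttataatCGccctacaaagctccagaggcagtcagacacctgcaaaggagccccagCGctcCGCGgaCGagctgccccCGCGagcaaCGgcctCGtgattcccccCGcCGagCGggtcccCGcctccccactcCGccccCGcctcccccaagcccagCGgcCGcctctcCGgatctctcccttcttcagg
Gad2, chr2:22622077-22622376, plus strand: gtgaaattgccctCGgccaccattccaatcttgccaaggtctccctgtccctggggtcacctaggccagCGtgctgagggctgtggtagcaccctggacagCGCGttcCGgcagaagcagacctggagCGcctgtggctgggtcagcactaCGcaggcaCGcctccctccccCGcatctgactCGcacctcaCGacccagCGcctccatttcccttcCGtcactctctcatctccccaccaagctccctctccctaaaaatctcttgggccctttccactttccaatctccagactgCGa

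The Gabrb2 window shown held 11 CG dinucleotides, the Gad1 window 21 and the Gad2 window 14, against a median of 7 over 32851 such windows of all genes, 94.6% of which held at least 1. Of all windows 39.6%, 23.1% and 34.6% held more than these, in that order. The letters TATAAA, searched on both strands, were in the windows shown for Gabrb2 and Gad1 but not in that of Gad2, and were in 13.6% of all windows. The Gabrb2 windows not shown held 9 CG dinucleotides each and lacked TATAAA. In all, 6 of the 7 genes had a window (9 windows). No DNA methylation was measured on these arrays, so the sequences are given for where the genes start and not for what was bound or methylated there. On the chromosomes, with only genes that have a probe here counted, Gabrg1, Gabra2, Cox7b2, Gabra4 and Gabrb1 follow each other on chromosome 5, and Gabrb2 follows Gabra6 on chromosome 11.

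Between M+V-treated and control cochleae, 6 of the 24 probes were lower past the study's cutoffs (more than 1.5-fold apart, with p below 0.05 before adjustment) and 0 higher, where 3.54% of all probes passed those cutoffs and 1.97% did so as lower. The 6 were 3 probes of Gabrb2 and 1 each of Gabrb1, Gad1 and Gad2. In all, 23 of the 24 log2 fold changes were below 0, with a median of -0.65 over the 24 probes and -0.79 over the brightest probe of each gene, against 47.9% below 0 and a median of 0.01 over all probes. After Benjamini-Hochberg adjustment over all 45037 probes, limma called none of the 24. It called 0 probes (0%) of the whole array in this comparison (lowest adjusted p 0.377), with 3267 probes (7.25%) at an unadjusted p under 0.05. Probes of 1 gene share their target and are not independent, and only 4 of the 24 (Gad1, Abat and 2 of Gabbr1) lay at or over the array median throughout some group.

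**Figure D1:**
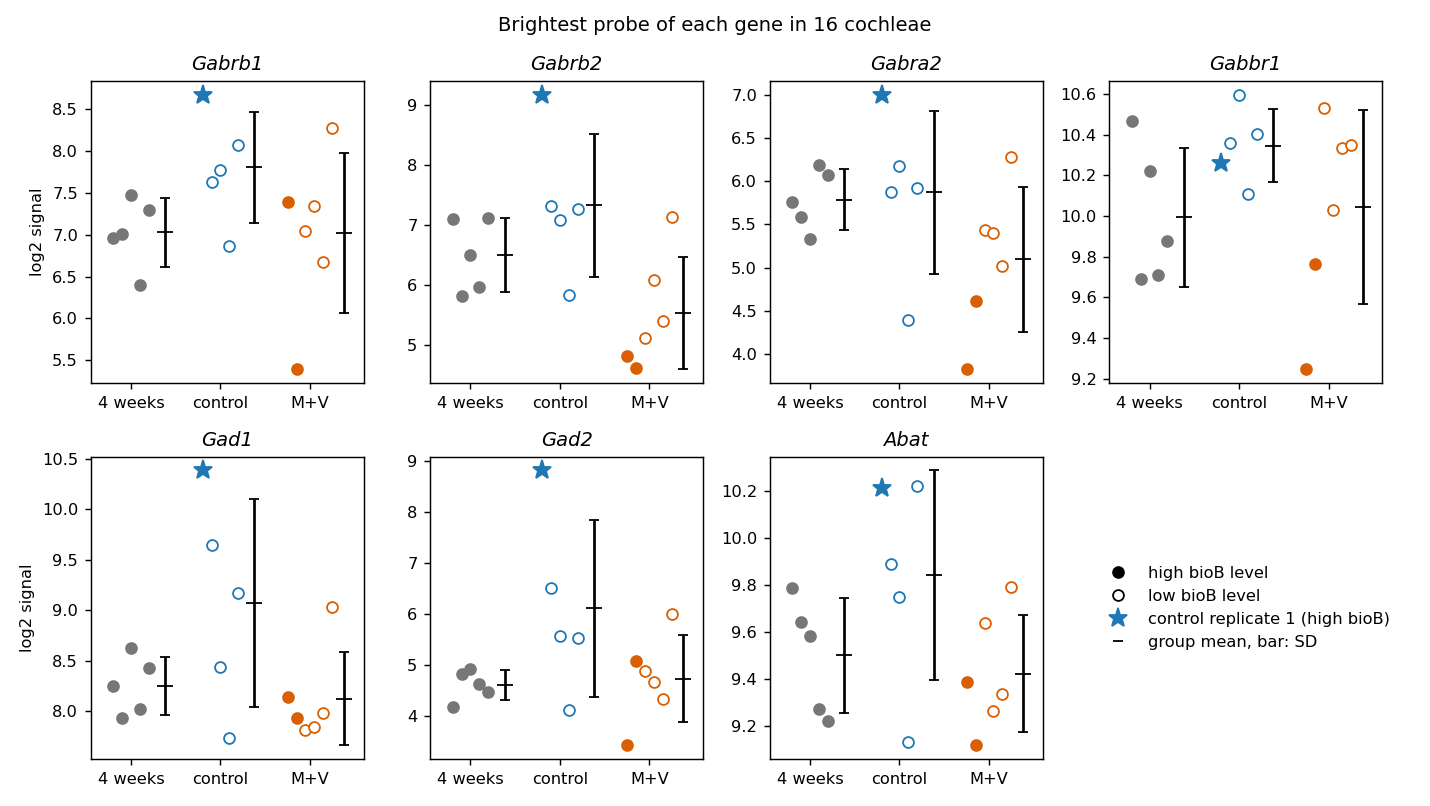
log2 signal of the brightest probe of each of the 7 genes in each of the 16 cochleae, by group; filled symbols are arrays with a high bioB level, open symbols arrays with a low one, the star is control replicate 1, and black bars give the group mean ± SD. Control replicate 1 is the highest array of all in 5 of the 7 panels, and M+V replicate 6 lies above the other 5 M+V arrays in Gabrb1, Gabrb2, Gabra2, Gad1, Gad2 and Abat.

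Gabrb2 encodes a beta subunit found in many GABA-A receptors of the adult brain, and the study itself picked it from these arrays for follow-up, so its position among the 7 is not independent evidence. That follow-up was qRT-PCR of selected genes. The paper's text names the zinc importer Zip4 and Hspa1b as significantly higher after M+V by qRT-PCR, and states no such result for Gabrb2. In the brightest of its 5 probes the levels were 7.09, 5.81, 6.50, 5.96 and 7.12 at 4 weeks, 9.17, 7.31, 7.08, 5.84 and 7.26 in control replicates 1 to 5, and 4.62 (lowest), 5.27 (median) and 7.13 (highest) in the M+V group. Of the 6 M+V arrays 4 lay below every control array and 4 below every array at 4 weeks, control replicate 4 lay among the M+V arrays, and M+V replicate 6 lay among the control arrays. The group means were 6.50 ± 0.61 (SD, n = 5) at 4 weeks, 7.33 ± 1.19 (n = 5) in control and 5.53 ± 0.94 (n = 6) in M+V. The M+V mean was 3.48-fold lower than the control mean (log2 fold change -1.80, SE 0.54; limma, unadjusted p = 0.0049, adjusted p = 0.682). Of 21 exact permutation tests, 7 genes in 3 comparisons, this was the single one under 0.05 (two-sided exact p = 0.0303, not adjusted for the 21).

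The other Gabrb2 probes lay on the same side. The probes 1429685_at (-1.85, SE 0.57) and 1428204_at (-1.17, SE 0.42) passed the study's cutoffs as well, and 1428205_x_at (-0.82, SE 0.42) and 1450319_at (-0.64, SE 0.60) did not. Against 4 weeks the brightest Gabrb2 probe differed by -0.97 (SE 0.54, adjusted p = 0.448 by limma), and the control mean was 0.83 (SE 0.57) above that at 4 weeks, neither past the study's cutoffs.

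Gabrb1, another beta subunit, was at 6.97, 7.01, 7.47, 6.40 and 7.30 at 4 weeks and at 8.68, 7.63, 7.78, 6.87 and 8.08 in control replicates 1 to 5. Its M+V arrays had a lowest level of 5.39, a median of 7.20 and a highest of 8.28. Thus 4 of the 5 control arrays lay above every array at 4 weeks, while M+V and control overlapped except for 2 M+V arrays below and 1 control array above all of the other group. The brightest probe was 1.72-fold lower in M+V than in control (-0.79, SE 0.43, unadjusted p = 0.0851 and adjusted p = 0.721 by limma), and M+V and 4 weeks differed by -0.01 (SE 0.43). The dimmer probe 1435095_at passed the study's cutoffs in both comparisons that involve control, at 0.84 (SE 0.35) for control against 4 weeks and -0.87 (SE 0.34) for M+V against control. The probe 1443834_at, near the floor in several arrays (0 to 4.41), was the exception among the 24, at 0.10 (SE 0.99).

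Gabra2 encodes an alpha subunit, the kind that helps to form the benzodiazepine site. The levels were 5.75, 5.59, 5.33, 6.19 and 6.07 at 4 weeks, 6.997, 5.87, 6.18, 4.39 and 5.92 in control replicates 1 to 5, and 3.82 (lowest), 5.21 (median) and 6.28 (highest) in M+V. Control replicate 1 was the highest and control replicate 4 the second lowest of all arrays, so the control group spanned most of the range. M+V differed from control by -0.78 (SE 0.44, adjusted p = 0.728 by limma) and from 4 weeks by -0.69 (SE 0.44). Of its 5 probes 1421738_at differed between M+V and 4 weeks at the study's cutoffs (-1.36, SE 0.62, adjusted p = 0.347), with the control mean between them. The probe 1449807_x_at had the lowest log2 fold change of all 24 in M+V against control, -1.86, with an SE of 0.93, and M+V replicates 1, 2 and 5 lay at 1.09, 0.71 and 0.54 there while the other 3 lay at 3.50 to 4.55.

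Gabbr1 encodes the subunit of the GABA-B receptor that binds GABA, and its control arrays lay closest together among the 7 genes (SD 0.18). The brightest probe read 10.47, 9.69, 10.22, 9.71 and 9.88 at 4 weeks, 10.26, 10.36, 10.60, 10.11 and 10.40 in control, and 9.25, 10.18 and 10.53 as lowest, median and highest in M+V. Control replicate 1 was not set apart here (-0.11 against the mean of the other 4 control arrays), and M+V replicate 1 was the lowest of all 16 arrays. None of its 4 probes passed the study's cutoffs in any comparison, and M+V differed from control by -0.30 (SE 0.22, adjusted p = 0.780 by limma).

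Among the enzymes that make GABA, Gad1 read 8.25, 7.93, 8.63, 8.03 and 8.43 at 4 weeks and 10.39, 9.65, 8.43, 7.74 and 9.17 in control replicates 1 to 5. In the M+V group the lowest level was 7.81, the median 7.96 and the highest 9.03. The M+V arrays other than replicate 6 lay together between 7.81 and 8.14, inside or just under the range at 4 weeks, whereas the control arrays were spread over 2.65 with 3 of the 5 above every M+V array. M+V was 1.94-fold lower than control (-0.95, SE 0.38, unadjusted p = 0.0251 and adjusted p = 0.682 by limma; two-sided exact permutation p = 0.0693), and M+V differed from 4 weeks by -0.13 (SE 0.38). The second Gad1 probe, 1416562_at, differed by -0.28 (SE 0.37).

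Gad2, the enzyme form linked to GABA made at nerve terminals, had the widest control group. Its brightest probe read 4.17, 4.82, 4.91, 4.63 and 4.48 at 4 weeks, 8.81, 6.50, 5.58, 4.12 and 5.53 in control replicates 1 to 5, and 3.43, 4.77 and 6.00 as lowest, median and highest in M+V. In 4 of the 5 control arrays it lay above every array at 4 weeks, and control replicate 1 lay 3.37 above the mean of the other 4 control arrays. The log2 fold change was -1.37 (SE 0.64, unadjusted p = 0.0483 and adjusted p = 0.686) for M+V against control and 1.505 (SE 0.67, unadjusted p = 0.0396 and adjusted p = 0.510) for control against 4 weeks by limma, both past the study's cutoffs, and 0.13 (SE 0.64) for M+V against 4 weeks. With 15 of 16 arrays under the array median, this probe is a dim one.

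Abat, which breaks GABA down, read 9.78, 9.64, 9.58, 9.27 and 9.22 at 4 weeks, 10.21, 9.89, 9.75, 9.13 and 10.22 in control, and 9.12, 9.36 and 9.79 as lowest, median and highest in M+V. Of the control arrays 3 lay above every M+V array and control replicate 4 was next to the lowest M+V array. The difference between M+V and control was -0.42 (SE 0.19, unadjusted p = 0.0473 and adjusted p = 0.686 by limma), a 1.34-fold difference and so short of the study's fold, and M+V and 4 weeks differed by -0.08 (SE 0.19). The genes of GABA synthesis and of its breakdown thus both had M+V means below the control mean.

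**Figure D2:**
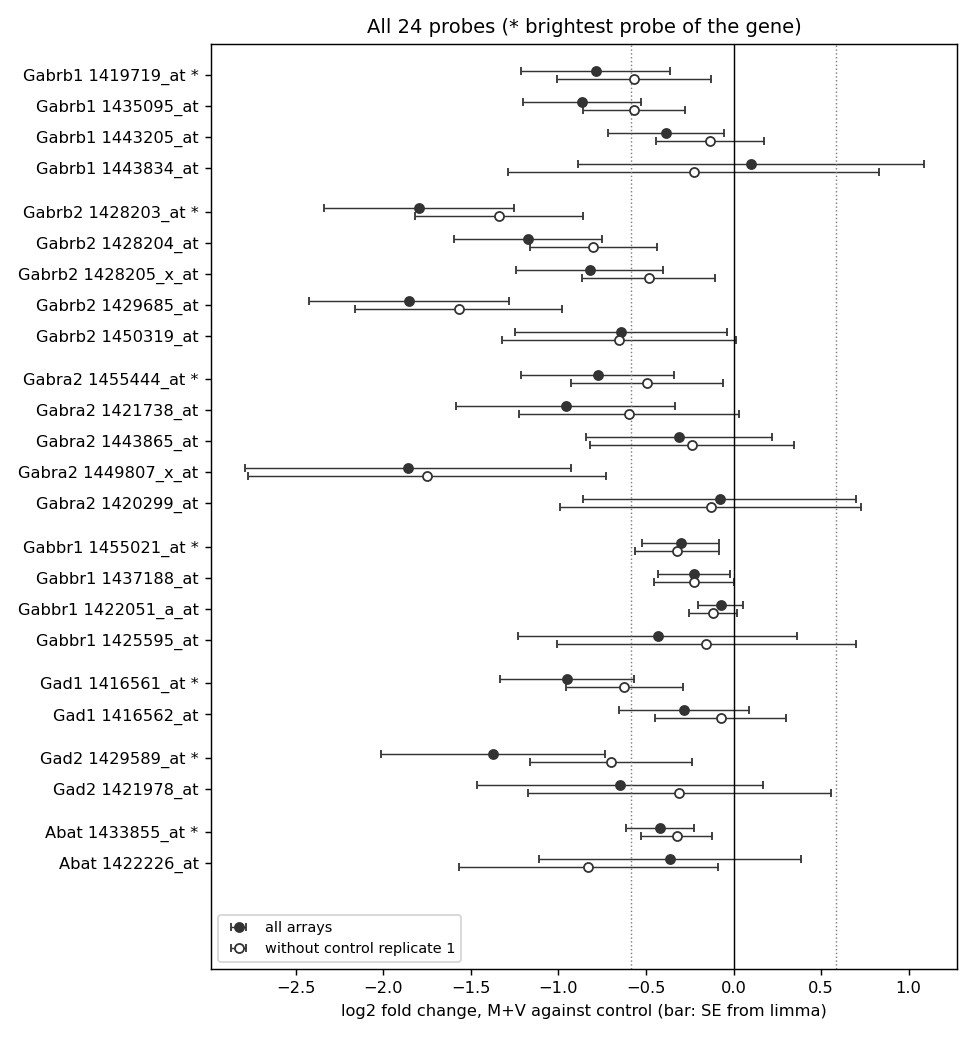
log2 fold change of M+V against control for each of the 24 probes, with bars for the SE from limma; filled points use all arrays, open points leave out control replicate 1, an asterisk marks a gene's brightest probe, and dotted lines mark a fold of 1.5. With all arrays 23 of the 24 points lie left of 0, and without control replicate 1 most points lie nearer to 0 and 3 probes, all of Gabrb2, pass the study's cutoffs.

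Against the untreated start, 1 of the 24 probes (Gabra2, above) passed the study's cutoffs, as lower in M+V, where 6.04% of all probes passed and 3.12% as lower, and the median over the 7 brightest probes was -0.08. Between control and 4 weeks, 2 of the 24 (1 each of Gabrb1 and Gad2) were higher and 0 lower, where 4.26% of all probes passed and 2.06% as higher, and all 7 brightest probes were above 0, with a median of 0.78 (0.08 to 1.505), where 50.1% of all probes lay below 0. The call of M+V against 4 weeks was lost on leaving out 4 weeks replicate 1 or 5, control replicate 2, 3 or 5, or M+V replicate 1, 2, 4 or 5, and 3 probes passed without M+V replicate 6. In control against 4 weeks 0 probes passed without control replicate 1 or 4 weeks replicate 4 or 5, 1 without 4 weeks replicate 1 or control replicate 2, and 7 without control replicate 4. None of the 24 passed the adjusted threshold in either comparison, while 317 probes (0.704%) and 95 probes (0.211%) of the array did. Both comparisons share the arrays at 4 weeks, and M+V against control shares arrays with each, so their values are set side by side and not taken as support for each other.

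The levels of the 7 genes varied together from array to array. With each gene's brightest probe centred on its own mean over 16 arrays, the mean over the 7 genes was 1.72 in control replicate 1, 0.67, 0.41 and 0.58 in control replicates 2, 3 and 5, and -0.62 in control replicate 4. In M+V it was -0.89 and -0.86 in replicates 1 and 2, -0.29, -0.27 and -0.49 in replicates 3 to 5, and 0.62 in replicate 6, and at 4 weeks it lay between -0.33 and 0.02. So both treated and control groups held an array that sat with the other group. Over the 21 pairs of genes, Pearson's r across the 16 arrays ran from 0.33 (Gabbr1 and Gad1) to 0.87 (Gad1 and Gad2), a description over arrays that share their groups and their tissue content.

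Control replicate 1 was the highest of all 16 arrays in 13 of the 24 probes (54.2%), against 8% over all probes of the array. Without it, 3 of the 24 probes were lower in M+V than in control at the study's cutoffs, all of Gabrb2, and the median over the 24 was -0.49. Gabrb2 was then at -1.34 (SE 0.48; two-sided exact permutation p = 0.0667), Gad1 at -0.62, Gad2 at -0.70, Gabrb1 at -0.57, Gabra2 at -0.50, Gabbr1 at -0.32 and Abat at -0.33, and between control and 4 weeks 0 probes passed. Leaving out any 1 of the other arrays gave 4 of 24 (without control replicate 2 or M+V replicate 5) to 11 of 24 (without control replicate 4), with 10 of 24 without M+V replicate 6. Among the 4 control and 4 M+V arrays with a low bioB level, 0 of the 24 passed in M+V against control and the median over the 7 brightest probes was -0.25, with Gabrb2 at -0.93 (two-sided exact permutation p = 0.2), Gad1 at -0.58 and Gad2 at -0.46. Among the arrays with a high level, control was a single array (replicate 1) set against M+V replicates 1 and 2. The median over the 7 brightest probes was -2.35 there, a value that rests on that single control array. With the bioB level as a term in the fit 6 of the 24 passed. Shares over all probes are not set beside the calls under these settings, so those counts compare settings only.

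**Figure D3:**
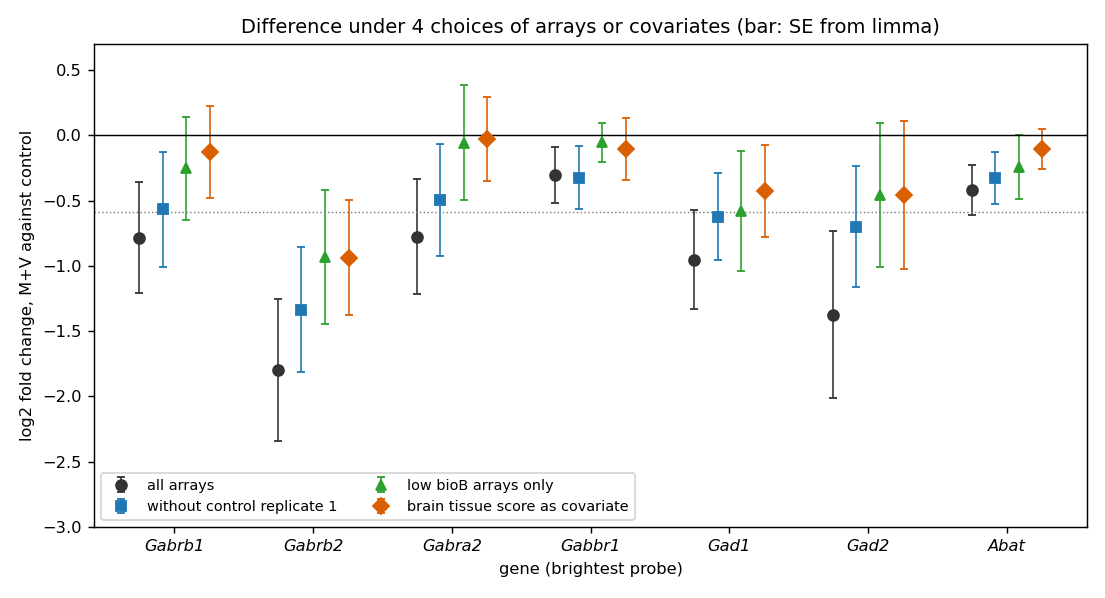
log2 fold change of M+V against control for the brightest probe of each gene, with bars for the SE from limma, using all 16 arrays, without control replicate 1, with the 8 low bioB arrays of these 2 groups alone, and with the brain tissue score as a covariate; the dotted line marks a fold of 1.5. All 28 points lie under 0, and Gabrb2 is the lowest of the 7 genes in each of the 4 settings.

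Around these 7 genes, 32 of 39 further genes of the GABA system had a probe. In M+V against control 4 of the 32 passed the study's cutoffs as lower and 0 as higher, where 1.97% of all probes passed as lower. The 32 lay on both sides of 0 (18 below, 14 above, median -0.08). The 4 were the receptor subunits Gabrg1 (-1.79, SE 0.81), Gabra5 (-1.34, SE 0.54) and Gabra4 (-0.82, SE 0.27), and the vesicular transporter Slc32a1 (-1.22, SE 0.48), each with an adjusted p of 0.682 to 0.686 by limma. Of these Gabrg1 and Gabra4 neighbour Gabra2 and Gabrb1 on chromosome 5. Without control replicate 1, 2 of the 32 passed the cutoffs, Gabra4 (-0.72, SE 0.29) and the alpha subunit Gabra6 (-2.54, SE 1.15).

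Slc32a1 marks neurons that release GABA or glycine. It read 5.05, 3.90, 5.50, 5.06 and 5.11 at 4 weeks, 6.86, 7.25, 5.79, 4.75 and 5.72 in control replicates 1 to 5 and 3.78 to 6.21 in M+V, with the highest M+V level again in replicate 6. In control against 4 weeks Slc32a1 (1.15, SE 0.50), Gabra3 (2.30, SE 0.94), Gabra5 (1.46, SE 0.56) and Gabra6 (2.66, SE 1.13) passed the study's cutoffs as higher, with adjusted p of 0.432 to 0.501 by limma. Over all probes 2.06% passed as higher in that comparison. Without control replicate 1, 1 of the 32 passed, Gabra6 (3.07). Gabra6, an alpha subunit of cerebellar granule cells, was not highest in control replicate 1. It read 5.97, 9.95, 8.01, 4.58 and 9.51 in control replicates 1 to 5, 8.42 in M+V replicate 6, 2.31 to 6.04 in the other M+V arrays and 3.12 to 5.57 at 4 weeks.

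Genes that anchor, traffic or accompany the receptors gave 1 call. None of the 10 anchoring and trafficking genes passed the study's cutoffs in any comparison, and the brightest of them, Gabarap, lay between 12.60 and 12.94 in all 16 arrays. With all arrays the single gene past the adjusted threshold was Kctd12b, of the family of auxiliary GABA-B subunits. It passed in M+V against 4 weeks, where 0.704% of all probes did. Kctd12b lay between 8.58 and 8.84 at 4 weeks and between 8.05 and 8.56 in M+V, every M+V array below every array at 4 weeks, as in 1.57% of all probes (-0.53, SE 0.11, adjusted p = 0.0484 by limma), and control arrays at 8.10 to 8.67 overlapped both. With the brain tissue score as a covariate the call was lost (-0.49, adjusted p = 0.135 by limma). Without control replicate 1, Aldh9a1, an aldehyde dehydrogenase, also passed in M+V against 4 weeks (0.47, SE 0.10, adjusted p = 0.0433 by limma), beside Kctd12b (adjusted p = 0.0326 by limma). Of the 16 further genes at or above the array median in every array of a group, 0 passed the study's cutoffs in any comparison.

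**Figure D4:**
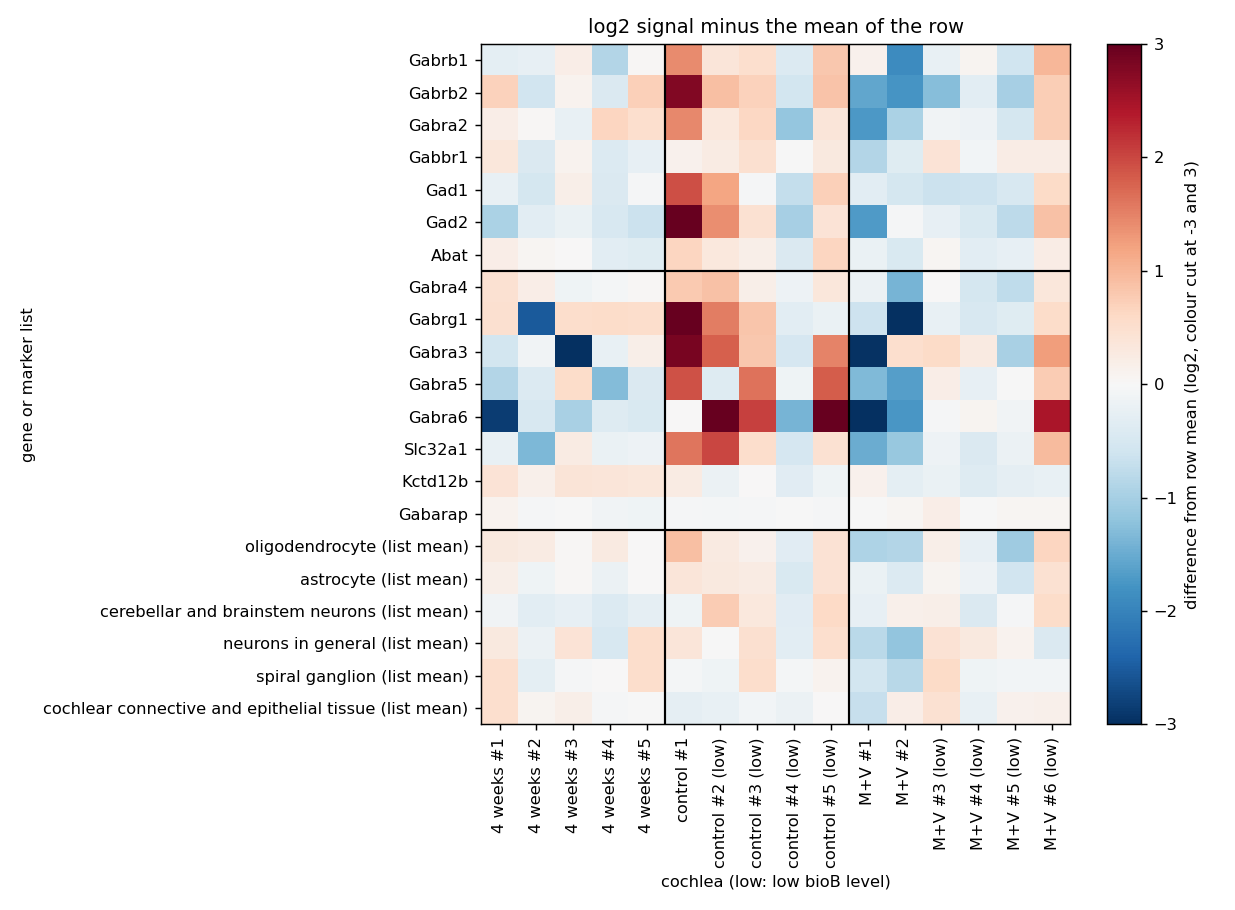
Difference of each array's log2 signal from the row's mean over 16 arrays, in colour, for the 7 genes (top), 8 further genes of the GABA system (middle) and the mean of 6 marker lists (bottom); vertical lines part the 4 weeks, control and M+V groups, and low marks arrays with a low bioB level. Control replicate 1 and M+V replicate 6 lie above the row mean in all 7 genes of the top block, but both are pale for Gabbr1, and M+V replicate 6 is pale for Abat too. Gabra6 is red in control replicates 2, 3 and 5 and M+V replicate 6, and Gabarap is pale in all arrays.

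The median of each list of brain cell or neuron markers lay on the same side of 0 as the 7 genes. Not every gene did, with 1 oligodendrocyte, 3 astrocyte and 3 cerebellar and brainstem neuron genes above 0. Over all probes 1.97% passed the study's cutoffs as lower. In M+V against control 8 of the 9 measured oligodendrocyte genes had log2 fold changes below 0 (median -0.78, 2 past the study's cutoffs, Ermn at -1.21 and Mobp at -0.88), and its mean ranged from 7.49 to 8.73 in control and from 6.74 to 8.47 in M+V. Of the astrocyte list 5 of 8 were below 0 (median -0.21) and 3 passed, Ntsr2 at -1.14, the glutamate transporter Slc1a2 at -0.76 and Aldoc at -0.65, with list means of 9.08 to 9.99 in control and 8.97 to 10.00 in M+V. Of the cerebellar and brainstem neuron list 6 of 9 were below 0 (median -0.20) and 1 passed, Zic1 at -0.64, with list means of 7.06 to 8.16 and 6.98 to 7.95. All 8 genes of the general neuron list were below 0 (median -0.44), 0 passed, and the list means were 10.99 to 11.79 in control and 10.10 to 11.74 in M+V, lowest in replicates 1 and 2. Without control replicate 1, 0 oligodendrocyte genes (median -0.46) and 1 astrocyte gene (Ntsr2, -0.88) passed, and in low bioB arrays alone 0 of either list passed (medians -0.21 and -0.18).

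For cells of the cochlea and its nerve, the medians were -0.26 for the spiral ganglion list (5 of 6 genes below 0), -0.32 for the Schwann cell list (4 of 4), 0.08 for the hair cell list (2 of 6) and 0.12 for the cochlear connective and epithelial tissue list (1 of 6), and 0 genes of these 4 lists passed in M+V against control. No list had a gene past the adjusted threshold. With the brain tissue score as a covariate, 1 of the 24 GABA probes passed the study's cutoffs in M+V against control (Gabrb2 1429685_at, -0.78), the median over the 7 brightest was -0.13, and the brightest Gabrb2 probe was at -0.94 (SE 0.44), while Gabra2 was at -0.03. The part of the brain tissue content and of the bioB level in the differences was not tested.

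Genes whose pattern over the 16 arrays was most like each of the 7 were sought among 11790 genes at or above the array median on average. For Gabrb2 these were Tppp (r = 0.93), Ntsr2 (0.92), Zcchc12 (0.91), Rit2 (0.91) and Negr1 (0.90), and for Gabra2 Tppp (0.87), Ptpn4 (0.87), Mmd2 (0.87), Scn2a (0.86) and Rida (0.86). For Gad1 they were Fut9 (0.92), Ntsr2 (0.90), Elmod1 (0.90), Scg2 (0.89) and Slc39a12 (0.88), and for Gad2 Gad1 (0.87), Fut9 (0.87), Ntsr2 (0.85), Chl1 (0.84) and Gpm6a (0.84). Abat was most like Ptprr (0.90), Slc1a2 (0.89), Aldoc (0.88), Ntsr2 (0.87) and Slc39a12 (0.86). The astrocyte gene Ntsr2 was thus among the 5 nearest of 4 of the 7 genes.

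Gabrb1 and Gabbr1 had other neighbours. Gabrb1 was nearest to Scg3 (0.88), Tmem108 (0.87), Sphkap (0.86), Lgi1 (0.84) and Nova1 (0.83), and Gabbr1 to Inafm1 (0.89), the neuronal microtubule gene Mapt (0.89), Atp6v0e2 (0.89), Haghl (0.88) and Pi4ka (0.88). Without control replicate 1 the r of these 35 pairs lay between 0.60 (Gad2 and Gpm6a) and 0.91 (Gabrb2 and Negr1). The correlations are Pearson's r over arrays of 3 groups and describe these arrays alone.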

How the data were processed

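Signals of 16 arrays were extracted by the authors with GCOS and the MAS5 algorithm (versions not given in the sources used here) and quantile-normalized; the deposited log2 values have the same median, 6.90, in each array. MAS5 signals of dim probes are noisy, and quantile normalization gives all arrays one distribution, so changes of total RNA are not seen. Signals below 1 (0.869% of values) were raised to 1.

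A linear model of the 3 group means was fitted (limma 3.58.1, R 4.3.3) to all 45037 probes that are not controls, with no filter, since the study's present calls were not used here. All tests were two-sided, with p adjusted by Benjamini-Hochberg and a threshold of 0.05. The study's cutoffs were counted as well, with limma p in place of the study's t-test unless stated. Single genes were tested by exact permutation (scipy 1.17.1). Fits were tested on simulated data.

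A gene is reported from its brightest probe (highest mean over the arrays). Named are the 7 genes, other GABA genes past a threshold or otherwise the brightest of their role, the 5 most similar genes of each, and marker genes. The members and lists were chosen with earlier results of these data known. Replicate numbers were not used as pairs: over 15 same-numbered pairs, the median correlation of deviations was 0.0102 and 0 were over 0.1. All 7 gene identifiers matched RefSeq symbols. Alternatives were a filter at the array median, cyclic loess, no floor, log2(signal + 32), array weights, a variance trend, the methods' t-test, only the compared groups, a replicate block, the bioB level, the brain tissue score, other probes of a gene, and leaving out each array. The number of arrays limits the precision.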

Additional observations from a re-analysis of the deposited data

Results flagged for a closer look

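In 7 of 72 groups of arrays (24 probes in 3 groups) 1 array stood far from the others of its group. The rule used flags about 1 in 20 groups of normally distributed values. That rate need not hold for dim probes near the floor, and the share over all probes was not computed. For Gad1 (1416561_at), M+V replicate 6 was at 9.03, above the other 5 M+V arrays at 7.81 to 8.14. The other 6 were dim probes. For Gabra2 (1420299_at), 4 weeks replicate 5 was at 4.09 and control replicate 3 at 3.07, with the rest of each group at 0 to 0.93 and 0 to 0.51. For Gad2 (1421978_at), 4 weeks replicate 3 was at the floor of 0, under 4.25 to 5.15 in the other 4. For Abat (1422226_at), control replicate 1 was at 2.35, under 4.39 to 5.19, the opposite side from its place in the brightest Abat probe. For Gabra2 (1449807_x_at), 4 weeks replicate 4 was at 0, under 4.00 to 5.14. For Gabrb2 (1450319_at), M+V replicate 1 was at 1.24, under 4.47 to 5.13 in the other 5.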

How the results depend on the processing

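For M+V against control, 6 of the 24 probes passed the study's cutoffs, 1 with the filter on low values, 2 by the methods' t-test, 0 in low bioB arrays alone, 12 in high bioB arrays alone (where control is replicate 1 only, a lone array assumed to vary like the other groups) and 1 with the brain tissue score; leaving out 1 array gave 3 (without control replicate 1) to 11 (without control replicate 4), with 10 without M+V replicate 6, and the exact permutation test of Gabrb2 lost its call in low bioB arrays alone (-0.93). For M+V against 4 weeks, 1 probe passed, 0 with the filter, with array weights, with the bioB term and with the brain tissue score, 2 in the fit of the compared groups, 4 in high bioB arrays, and 0 to 3 when 1 array was left out. For control against 4 weeks, 2 probes passed, 1 with the filter and with array weights, 4 with log2(signal + 32) and 0 by the methods' t-test. The count ran from 0 (without control replicate 1) to 7 when 1 array was left out. None is given for high bioB arrays, again because of that lone control array. With the replicate block 9 probes passed for M+V against control, 3 for M+V against 4 weeks and 3 for control against 4 weeks. Replicate number 6 occurs in M+V alone, so the block takes up that array. Its log2 fold changes are those found without M+V replicate 6. Of the further GABA genes, 4 and 4 passed in M+V and in 4 weeks against control, and 0 and 0 with the filter. None of the 24 probes passed the adjusted threshold under any alternative that gave it a value. Shares over all probes are not set beside the counts of this section. The counts thus compare settings only, and a change in a count is not read as particular to these genes.

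In M+V against control each of the 7 brightest probes was below 0 under every alternative that gave it a value; the filter kept 3 of the 7 (Gad1, Abat and Gabbr1). In M+V against 4 weeks, with differences near 0, Gabrb1 turned to 0.029 with log2(signal + 32), 0.15 with array weights and 0.45 with the brain tissue score; Gad1 to 0.22 with the bioB term, 0.24 with the score and 0.073 as the mean of its probes; and Abat to 0.14 with the score and 0.037 as the mean of its probes. Gabbr1 turned to -0.012 with the replicate block, -0.31 with the bioB term and -0.49 in high bioB arrays, and Gad2 to -0.12 with the block and -0.35 in high bioB arrays. In control against 4 weeks, Gabra2 turned to -0.027 with array weights, -0.15 with the bioB term and -0.14 with the score, and Gabbr1 to -0.083 with the bioB term. Leaving out 1 array gave ranges across 0 for Gabrb1 (-0.26 to 0.32), Gabbr1 (-0.048 to 0.21) and Gad2 (-0.12 to 0.39) in M+V against 4 weeks and for Gabra2 (-0.20 to 0.45) in control against 4 weeks. The values with the block are those of leaving out M+V replicate 6. For the other settings the cause was not tested.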
